A study of Mus musculus with 6 samples.

Results

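The *Hox* cluster genes were examined by RNA-seq in whole E10.5 mouse embryos (E for embryonic day). Members were the protein-coding genes of the count table whose symbol is *Hoxa*, *Hoxb*, *Hoxc* or *Hoxd* followed by a number, which gave 39 of 55401 genes, and 38 of them are described. WT embryos carried the wild-type *Igf2* locus. 5C embryos carried an array of *Mir483* copies at that endogenous locus, so the extra microRNA is driven by the regulatory elements of *Igf2* and not by a tissue-specific transgene. Each genotype had 3 libraries from male embryos. Every library pooled 2 embryos according to the methods of the study, and WT embryos were littermates of 5C embryos. No drug or other treatment was given per the labels.

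*Hox* genes encode homeodomain transcription factors that give cells their position along the head-to-tail axis and, later, along the limb. They lie in 4 clusters, and genes of equal number in different clusters are paralogs that descend from a common ancestral gene. Within a cluster all genes point the same way, and their order along the chromosome matches the order of their expression: low-numbered genes switch on early and reach up to the hindbrain, high-numbered genes switch on late and stay near the tail, limb buds and genital tubercle. The described genes span chromosome 6 from 52162417 to 52260880 (*Hoxa2* to *Hoxa13*, minus strand), chromosome 11 from 96194316 to 96368256 (*Hoxb13* to *Hoxb1*, plus strand), chromosome 15 from 102921103 to 103036852 (*Hoxc13* to *Hoxc4*, plus strand) and chromosome 2 from 74668310 to 74765142 (*Hoxd13* to *Hoxd1*, plus strand) in GRCm38.

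Libraries held 6357343 to 19151368 counts, and 3 counts corresponded to 0.157 to 0.479 CPM (counts scaled to the size of the library, with totals corrected by the trimmed mean method, TMM). *Mir483*, the edited gene, had 11, 5 and 2 counts in WT replicates 1 to 3 and 85, 51 and 36 counts in 5C replicates 1 to 3. All 5C libraries therefore lay above all WT libraries, in the direction of the labels. The log2 fold change of *Mir483* was 3.05 with a standard error (SE) of 0.36, with an adjusted p of 0.169 over all genes (edgeR, quasi-likelihood F-test). Several libraries stood apart in tissue markers, and the part of these differences in the *Hox* values was not tested. Summed levels of 8 yolk sac endoderm genes were 6039, 180 and 425 in WT against 119, 121 and 1170 CPM in 5C. The hindlimb gene *Tbx4* was at 398.5 CPM in WT replicate 3 and at 5.48 to 9.39 CPM in the other 5 libraries. *Pitx1*, the other hindlimb gene listed, did not stand apart there. It was at 24.1, 18.1 and 22.5 in WT against 15.9, 19.4 and 18.3 CPM in 5C, lowest in 5C replicate 1 and next lowest in WT replicate 2. Summed levels of 7 decidua genes were 10.49, 10.4 and 49.0 in WT against 41.9, 12.5 and 54.0 CPM in 5C, with *Prl3c1* at 0 in 5 of 6 libraries. In whole embryos, fewer cells of a type and less RNA per cell cannot be told apart.

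To ask which *Hox* genes were transcribed at E10.5, levels were compared between genes as RPKM, the TMM-scaled CPM per kilobase of annotated exon. Transcripts of all 4 clusters were found. *Hoxb9*, a gene of the trunk and tail, was the most abundant member at 18.6 ± 3.76 RPKM in WT and 20.8 ± 1.31 RPKM in 5C (SD, n = 3 each), above 83.1% of 16770 genes tested. *Hoxa5*, which patterns the neck, upper thorax and lung, followed at 10.9 ± 1.66 and 12.7 ± 1.14 RPKM. The hindbrain genes *Hoxb2*, *Hoxa2* and *Hoxb3* came next, with means over the 6 libraries of 10.01, 9.88 and 9.87 RPKM, and *Hoxb4* stood at 9.54 RPKM. These 4 neighbours in the order did not differ beyond the spread between libraries, which reached from 8.27 to 10.9 RPKM for *Hoxa2* alone. The most abundant members of clusters C and D were *Hoxc5*, at 6.56 ± 1.64 RPKM in WT and 6.99 ± 0.362 in 5C, and *Hoxd4*, at 9.35 ± 0.979 RPKM in WT and 9.38 ± 0.684 in 5C.

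At the low end stood the last genes of their clusters. *Hoxb13* had 13, 0 and 6 counts in WT and 4, 4 and 10 counts in 5C. *Hoxc12* had 25, 0 and 5 counts in WT and 6, 2 and 10 counts in 5C, and *Hoxc13* had 9, 1 and 7 counts in WT and 4, 5 and 6 counts in 5C. A count of 0 in WT replicate 2 allows a level of up to 0.258 CPM. These 3 genes did not pass the count filter and were not tested in the fit of all 6 libraries. Fitted without a filter, their log2 fold changes of 5C against WT were -0.24, -0.81 and -0.40, with adjusted p-values of 0.811 or more in edgeR. Without WT replicate 2 *Hoxc12* passed the filter, at -1.41 (SE 0.53, unadjusted p = 0.0269, adjusted p = 0.455 in edgeR). Their paralogs in cluster D, where *Hoxd13* patterns the digits and the genitalia, were higher: *Hoxd13* was at 3.72 ± 0.676 RPKM in WT and 4.18 ± 0.532 RPKM in 5C, and *Hoxd12* was at 1.40 ± 0.880 and 1.27 ± 0.416 RPKM.

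The order of levels was stable between libraries, with Spearman correlations over the 38 genes of 0.936 to 0.982 between pairs of libraries, which share the same gene lengths. Neighbours within a cluster could still differ widely. *Hoxb5*, between *Hoxb4* and *Hoxb6*, was at 1.53 ± 0.361 RPKM in WT, where *Hoxb6* was at 7.75 ± 1.72 RPKM. *Hoxa3* was at 2.24 ± 0.469 RPKM in WT between *Hoxa2* at 9.24 ± 0.888 and *Hoxa4* at 3.47 ± 1.04 RPKM. In the group 8 paralogs, which pattern the thorax, *Hoxb8* was at 2.39 ± 0.711 RPKM in WT while *Hoxc8* and *Hoxd8* were at 5.57 ± 1.68 and 5.95 ± 1.26 RPKM.

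**Figure D1:**
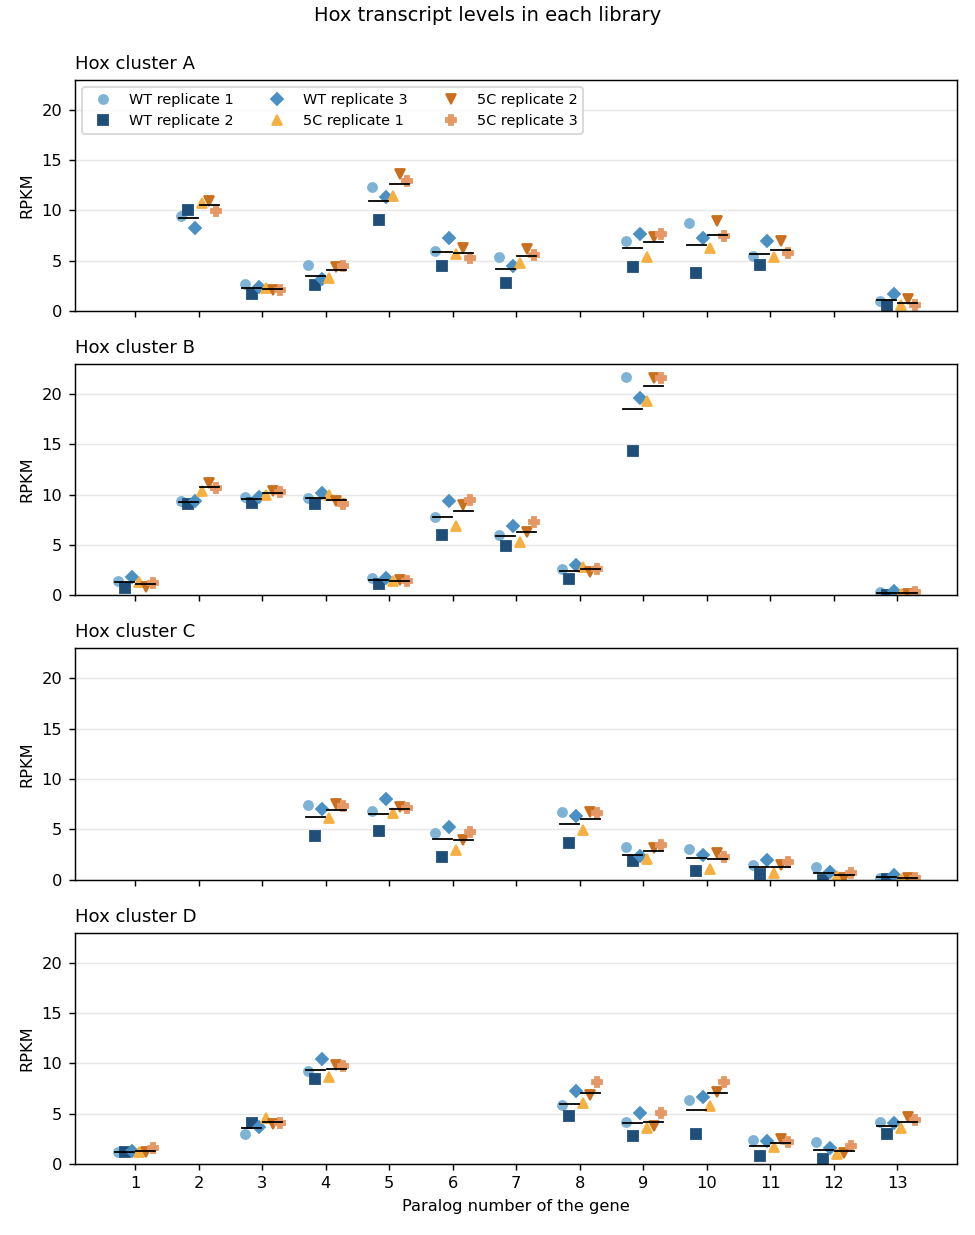
Levels of the 38 described *Hox* genes in RPKM (vertical axis) against paralog number (horizontal axis), with a panel for each cluster. Each symbol is a library and black lines are genotype means. *Hoxb9* stood highest, *Hoxb13*, *Hoxc12* and *Hoxc13* lay near 0, and WT replicate 2 (dark squares) lay under the other libraries for most genes of groups 5 to 13.

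Levels of *Hoxd3* and *Hoxd4* are uncertain, because *Gm28230*, a transcript annotated across both on the same strand, covers 2225 of 4191 exon bases of *Hoxd3* and 1154 of 2948 of *Hoxd4*, and *Hoxd3* and *Hoxd4* share a further 388 exon bases. Counting that drops reads under exons of several genes loses these bases. Divided by the bases that no other gene of that strand holds, the mean over 6 libraries moved from 3.86 to 10.3 RPKM for *Hoxd3* and from 9.37 to 19.6 RPKM for *Hoxd4*, next to 19.7 RPKM for *Hoxb9*. The corresponding shift was small for *Hoxa2*, from 9.88 to 11.6 RPKM, and absent in cluster B, where no member shares exon bases on its strand. Antisense partners overlap other members, among them *Hoxb3os* with 2250 of 4251 exon bases of *Hoxb3*, and the strand setting of the counting was not stated.

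By cluster, A took 29.7% ± 0.743 of summed *Hox* RPKM in WT and 30.3% ± 1.47 in 5C, and B took 35.6% ± 2.29 and 35.0% ± 1.505 (SD, n = 3 each). Cluster C took 15.3% ± 2.45 in WT and 14.9% ± 1.27 in 5C, and D took 19.4% ± 0.763 and 19.9% ± 0.969. In every cluster the genotype means lay closer together than the spread between libraries. Over bases of their own, cluster D held 25.8% in WT and 26.0% in 5C.

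Small RNAs encoded inside the clusters are known to pair with *Hox* transcripts, so 3′ UTRs of the members were searched for matches to them and to the microRNA of the edited locus. Mature sequences are from RefSeq (GRCm38.p6), with the seed, bases 2 to 8, in capitals. *Mir10a* lies before *Hoxb4* (chr11:96317186-96317208) and *Mir10b* inside *Hoxd4* (chr2:74726074-74726096). *Mir196a-1* lies between *Hoxb13* and *Hoxb9* (chr11:96265187-96265208), *Mir196a-2* between *Hoxc10* and *Hoxc9* (chr15:102973365-102973386), and *Mir196b* overlaps *Hoxa9* on its strand (chr6:52230129-52230150, minus strand). The seeds show which of them can be grouped: miR-10a and miR-10b share a seed, miR-196a and miR-196b share another, and the arms of *Mir483* (chr7, minus strand) differ from both.
miR-10a-5p: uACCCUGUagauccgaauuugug
miR-10b-5p: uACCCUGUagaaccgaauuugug
miR-196a-5p: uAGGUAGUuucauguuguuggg
miR-196b-5p: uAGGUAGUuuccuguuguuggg
miR-483-3p: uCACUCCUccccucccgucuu
miR-483-5p: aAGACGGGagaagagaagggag

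A match to the miR-196 seed (ACTACCT on the transcript strand) was found in the 3′ UTR of 8 of 38 members, or 21.1%, against 6.06% of 21023 coding genes with an annotated 3′ UTR. The 8 were *Hoxa4*, *Hoxa5*, *Hoxa7*, *Hoxa9*, *Hoxb1*, *Hoxb6*, *Hoxb7* and *Hoxc8*, all but *Hoxb1* of groups 4 to 9. *Hoxa7* held 4 matches and *Hoxc8* held 2. Over the whole length of miR-196, 1 window stood out: in the 3′ UTR of *Hoxb8*, 21 of 22 bases could pair, and the other base formed a G-U wobble within the seed, so the seed search missed it. The next best members reached 15 of 22 bases. Shown are this window, the best seed match, which was in *Hoxa9*, and the *Hoxa7* site with most pairs, each 5′ to 3′ with bases that pair with miR-196a or miR-196b in capitals.
Hoxb8 chr11:96284888-96284909 (plus strand): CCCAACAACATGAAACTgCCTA
Hoxa9 chr6:52223900-52223921 (minus strand): CaaAAggAaAGaAAACTACCTt
Hoxa7 chr6:52215210-52215231 (minus strand): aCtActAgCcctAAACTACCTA

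Matches to the miR-10 seed (ACAGGGT) were found in 3 of 38 members, *Hoxa3*, *Hoxb3* and *Hoxd1*, or 7.89% against 12.3% of coding genes. The seed of miR-615-3p (GGCTCGG), whose gene lies in cluster C (chr15:103014969-103014990), matched *Hoxb4*, or 2.63% of members against 2.27% of coding genes. Of the seeds of the overexpressed microRNA, miR-483-3p (AGGAGTG) matched *Hoxc5*, or 2.63% of members against 10.503% of coding genes, and miR-483-5p (CCCGTCT) matched *Hoxb5*, or 2.63% against 2.66%. These sites are shown because the edit raises *Mir483*, with the seed match and other paired bases in capitals.
Hoxc5 chr15:103017268-103017288 (plus strand), miR-483-3p: ccccCcacActGGAGGAGTGg
Hoxb5 chr11:96305496-96305517 (plus strand), miR-483-5p: tgtgacTtcCcctcCCCGTCTg

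Neither gene passed the test. *Hoxc5* was at 21.04, 14.9 and 24.9 in WT against 20.3, 22.4 and 22.1 CPM in 5C, with a log2 fold change of 0.10 (SE 0.17, adjusted p = 0.904 in edgeR). *Hoxb5* was at 4.88, 3.09 and 4.79 in WT against 4.06, 4.10 and 3.92 CPM in 5C, with a log2 fold change of -0.08 (SE 0.21, adjusted p = 0.954). The genotypes overlapped in both genes. A match describes letters only. Mature microRNAs were not measured by these poly(A) libraries, and *Hoxd11*, with 30 bases of 3′ UTR in its longest transcript, could hardly hold a match.

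**Figure D2:**
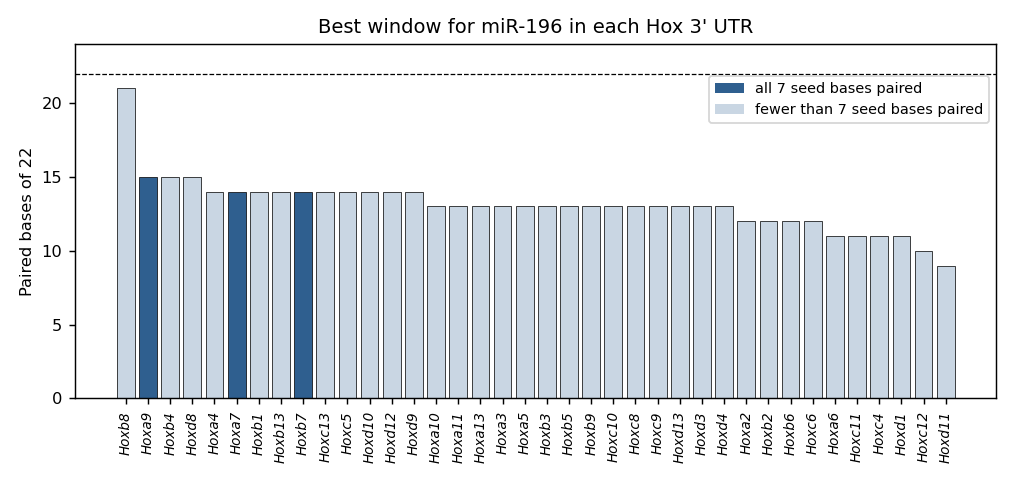
Number of bases of miR-196a or miR-196b (of 22, dashed line) that pair in the best ungapped window of the 3′ UTR of each described *Hox* gene, in falling order. Dark bars are windows with all 7 seed bases paired. *Hoxb8* reached 21 bases and the other genes 9 to 15.

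To ask whether excess *Mir483* altered *Hox* expression, 5C was compared with WT over all genes. Of the 35 *Hox* genes tested, 0 passed an adjusted p under 0.05 with a fold change over 1.5, as did 0% of the 16784 genes tested. At an unadjusted p under 0.05 there was 1 *Hox* gene, *Hoxb2*, or 2.86% of those tested, against 6.02% of all genes, with 3.47% lower and 2.55% higher in 5C. DESeq2 gave 0 at that level, against 4.28% of all genes. Log2 fold changes lay between -0.38 (*Hoxa13*) and 0.40 (*Hoxd10*) with a median of 0.12, against a median of -0.0024 over all genes, and the smallest adjusted p was 0.781. A negative sign was found for 9 of 35 members, or 25.7%, against 50.7% of all genes. The other 26 were positive, but that balance rested on WT replicate 2: without it 25 of 37 members tested were negative and the median was -0.06.

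*Hoxb2*, which sets the identity of hindbrain segments and of facial motor neurons, measured 32.8, 31.6 and 32.9 in WT against 36.3, 38.8 and 37.2 CPM in 5C. All 5C libraries lay above all WT libraries, and the values within each genotype were close. Its log2 fold change was 0.21 (SE 0.08), and its unadjusted p was 0.0244, but its adjusted p in edgeR was 0.781, so the difference did not pass the test over all genes. *Hoxb3*, its neighbour, which acts in the same segments and in the pharyngeal arches, measured 41.3, 38.9 and 41.6 in WT against 42.4, 44.1 and 43.5 CPM in 5C. The genotypes again did not overlap, but the step was small, with a log2 fold change of 0.09 (SE 0.07, adjusted p = 0.806), or 0.16 when the counts were corrected for GC content (SE 0.07, unadjusted p = 0.0517, adjusted p = 0.918 in edgeR). These were the only members tested whose genotypes did not overlap: 2 of 35 lay higher in 5C, or 5.71%, against 6.26% of all genes, and 0 lay lower, against 5.10%. The antisense gene *Hoxb3os* overlaps 953 of 3488 exon bases of *Hoxb2* as well as *Hoxb3*.

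*Hoxa2*, the partner of *Hoxb2* in the hindbrain and the gene that gives the second pharyngeal arch its identity, was at 16.7, 17.8 and 14.7 in WT against 19.03, 19.4 and 17.7 CPM in 5C. The lowest 5C library lay just under the highest WT library, and the log2 fold change was 0.18 (SE 0.11, unadjusted p = 0.135, adjusted p = 0.781 in edgeR). *Hoxd3*, which patterns the first neck vertebrae, was at 12.6, 16.9 and 15.3 in WT against 18.9, 16.4 and 16.9 CPM in 5C, with a log2 fold change of 0.23 (SE 0.13, unadjusted p = 0.117, adjusted p = 0.781). The genotypes overlapped in both. The log2 fold change of *Hoxd3* was 0.11 without WT replicate 1 and 0.34 without WT replicate 2 (unadjusted p = 0.0337, adjusted p = 0.470 in edgeR), and that of *Hoxa2* was 0.11 without WT replicate 3. *Hoxd4*, its neighbour, was at 27.2, 24.9 and 30.6 in WT against 25.3, 28.9 and 28.7 CPM in 5C. It differed by 0.01 on the log2 scale (SE 0.11, adjusted p = 0.998 in edgeR), and the genotypes overlapped.

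Among genes of the neck and trunk, *Hoxa5* was at 12.3, 9.06 and 11.3 in WT against 11.4, 13.6 and 12.97 RPKM in 5C (log2 fold change 0.21, SE 0.13, adjusted p = 0.781 in edgeR). *Hoxa7* was at 15.4, 8.07 and 12.8 in WT against 13.7, 17.6 and 16.02 CPM in 5C (log2 fold change 0.37, SE 0.21, adjusted p = 0.781). *Hoxd8* was at 15.9, 13.1 and 19.9 in WT against 16.6, 18.9 and 22.4 CPM in 5C (log2 fold change 0.26, SE 0.17, adjusted p = 0.781). In each of them WT replicate 2 was the lowest library and the other WT libraries lay within or near the 5C range. Their size turned on single WT libraries, in both directions. Without WT replicate 2 the log2 fold changes were 0.09, 0.14 and 0.13. Without WT replicate 1, *Hoxa5* was at 0.33 and *Hoxa7* at 0.64 (unadjusted p = 0.0445 and 0.0112, adjusted p = 0.947 for both in edgeR). *Hoxd8* was at 0.40 without WT replicate 3 (unadjusted p = 0.0431, adjusted p = 0.878 in edgeR) and at 0.13 without 5C replicate 3.

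The posterior genes gave the widest spread. *Hoxb9* was at 55.8, 37.0 and 50.4 in WT against 49.8, 55.5 and 55.7 CPM in 5C, with a log2 fold change of 0.17 (SE 0.14, adjusted p = 0.811 in edgeR) that was 0.01 without WT replicate 2. Without WT replicate 1 it was 0.31 (SE 0.13, unadjusted p = 0.0391, adjusted p = 0.947 in edgeR). *Hoxd10*, which acts in lumbar motor neurons and the hindlimb, was at 11.6, 5.41 and 12.1 in WT against 10.48, 12.98 and 14.7 CPM in 5C. Its log2 fold change of 0.40 (SE 0.27, adjusted p = 0.781) was the highest of the members, and was 0.10 without WT replicate 2 and 0.61 without WT replicate 1. *Hoxa13*, a gene of the distal limb and hindgut, had the lowest log2 fold change at -0.38 (SE 0.43, adjusted p = 0.859), from 46, 14 and 26 counts in WT and 23, 33 and 21 counts in 5C, and with a library left out it lay between -0.77 (without 5C replicate 2) and -0.01 (without WT replicate 3).

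The remaining 22 members tested lay between -0.17 (*Hoxd12*) and 0.24 (*Hoxd11*) on the log2 scale, with adjusted p-values of 0.847 or more in edgeR, and 7 of them were negative. They were *Hoxa3*, *Hoxa4*, *Hoxa6*, *Hoxa9*, *Hoxa10* and *Hoxa11* in cluster A, *Hoxb1*, *Hoxb4*, *Hoxb6*, *Hoxb7* and *Hoxb8* in cluster B, *Hoxc4*, *Hoxc6*, *Hoxc8*, *Hoxc9*, *Hoxc10* and *Hoxc11* in cluster C, and *Hoxd1*, *Hoxd9*, *Hoxd11*, *Hoxd12* and *Hoxd13* in cluster D. Their WT means ran from 2.23 CPM for *Hoxd1* to 35.2 CPM for *Hoxa9*, and the genotypes overlapped in each of them.

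**Figure D3:**
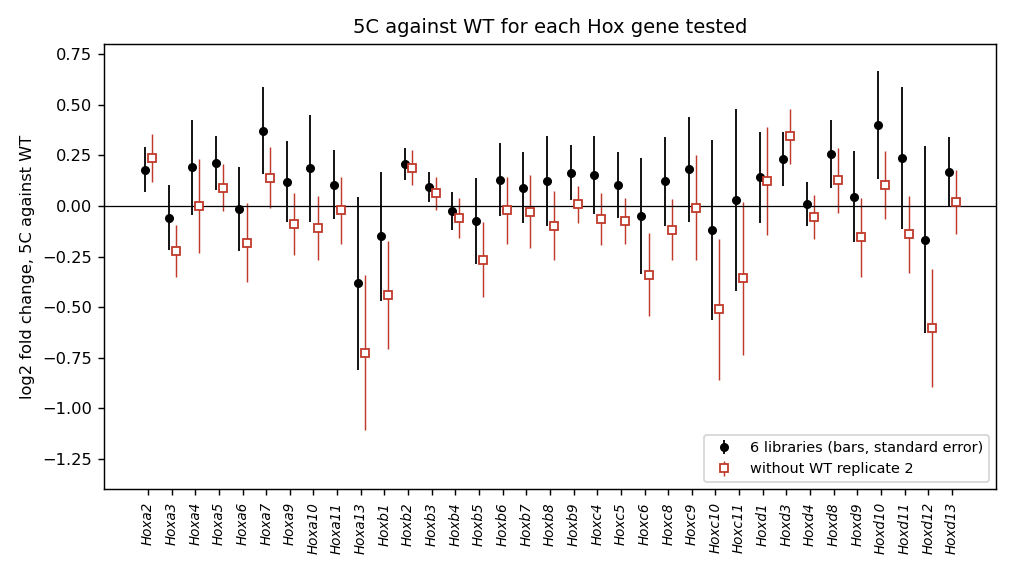
Log2 fold change of 5C against WT (vertical axis) for the 35 *Hox* genes tested, in cluster and paralog order, with standard errors as bars. Black circles use all 6 libraries and open squares leave out WT replicate 2. With all libraries 26 genes lay above 0, and 14 of them moved under 0 without WT replicate 2.

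The widest pattern through the members lay between libraries, with 1 low library in each genotype. With 3 libraries per genotype, a smaller difference between genotypes could not be separated from it. WT replicate 2 was the lowest library for 34 of the 38 genes described, and for 31 of the 35 tested, or 88.6%, where it was the lowest library for 15.9% of all genes tested. Summed over the 38 genes, *Hox* transcripts took 554, 397 and 563 in WT against 498, 577 and 577 CPM in 5C. WT replicate 2 was thus the lowest library and 5C replicate 1 the next lowest.

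The shortfall grew with paralog number by class, though not evenly from group to group. The median log2 deviation of WT replicate 2 was -0.39 in group 1, against -0.06 and -0.11 in groups 2 and 3. It was -0.58 in group 13, against -1.17 and -1.43 in groups 11 and 12. In groups 1 to 4, WT replicate 2 was at a median of 0.890 times the mean of the other 5 libraries, in groups 5 to 8 at 0.701 times and in groups 9 to 13 at 0.532 times (geometric mean, 11, 11 and 13 genes). It was the lowest library for 7 of 11 genes of groups 1 to 4, for 11 of 11 of groups 5 to 8 and for 16 of 16 described genes of groups 9 to 13. Across the 35 genes tested, which share the library, the Spearman correlation of its log2 deviation with paralog number was -0.66. *Hoxa2* at 17.8 CPM and *Hoxd3* at 16.9 CPM were not reduced in WT replicate 2 against the other WT libraries, while *Hoxd11* was at 3.18 CPM against 9.92 and 9.57 CPM. *Hoxd12* was at 1.12 CPM against 5.51 and 3.99 CPM, and *Hoxc10* at 1.63 CPM against 5.88 and 4.63 CPM. *Hoxa11* and *Hoxd13* of the same classes were less far apart, with 10.48 CPM against 12.5 and 15.95 CPM for *Hoxa11* and 7.30 CPM against 10.3 and 10.1 CPM for *Hoxd13*.

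5C replicate 1 leaned the same way by smaller amounts. Across the 35 genes tested, the Spearman correlation of its log2 deviation with paralog number was -0.62, close to the -0.66 of WT replicate 2. In the other 4 libraries it was 0.35 to 0.55. 5C replicate 1 was at 1.05 times the mean of the other libraries in groups 1 to 4, at 0.972 times in groups 5 to 8 and at 0.877 times in groups 9 to 13, where 0 of 13 genes tested lay above the mean of all 6 libraries. In *Hoxc10* it was at 2.06 CPM, near the 1.63 CPM of WT replicate 2 and under the 4.34 to 5.88 CPM of the other 4 libraries. The other 4 libraries, of both genotypes, lay at 1.23 to 1.25 times the mean of their counterparts in groups 9 to 13.

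**Figure D4:**
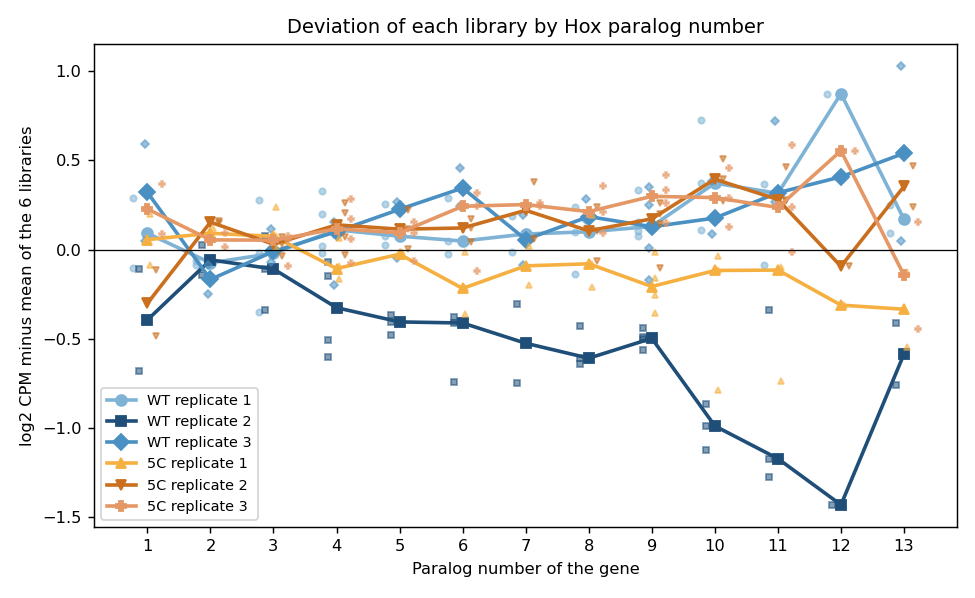
Log2 CPM of each library minus the mean of the 6 libraries (vertical axis) against paralog number (horizontal axis) for the 35 *Hox* genes tested. Small symbols are genes and lines join medians. WT replicate 2 falls from near 0 in groups 2 and 3 to -1.43 in group 12, held by 1 gene, and 5C replicate 1 falls less. The medians of WT replicate 2 were -0.39 in group 1 and -0.58 in group 13, with 2 genes each.

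Class sums in RPKM gave the same order. Groups 9 to 13 summed to 72.6, 40.7 and 71.0 RPKM in WT and to 56.9, 72.7 and 73.1 RPKM in 5C. Groups 1 to 4 summed to 67.8, 60.3 and 67.3 RPKM in WT and to 68.4, 71.5 and 70.3 RPKM in 5C. The share of groups 9 to 13 was 32.3% ± 3.97 in WT and 33.0% ± 1.79 in 5C (SD, n = 3 each), so the genotypes differed by less than the spread between libraries. The median coefficient of variation between the 6 libraries was 13.03% in groups 1 to 4, 17.8% in groups 5 to 8 and 27.2% in groups 9 to 13. These values include the low WT replicate 2 and counting error, and their parts were not separated. Genes of low counts lie in groups 9 to 13, such as *Hoxc11* at 12 to 55 counts and *Hoxa13* at 14 to 46. The coefficient was smallest for *Hoxb3* at 4.37% and *Hoxb4* at 4.75%, which had 163 to 788 counts.

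**Figure D5:**
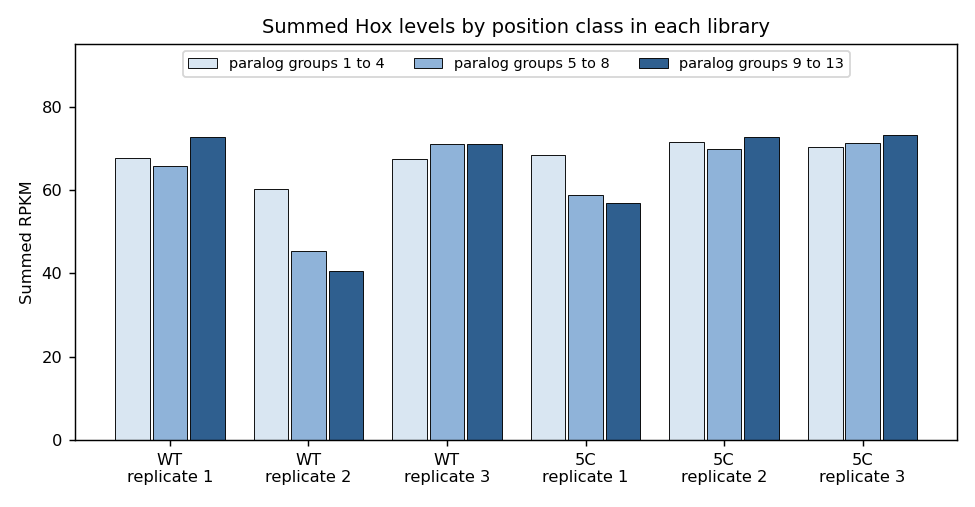
Summed RPKM (vertical axis) of *Hox* genes of groups 1 to 4 (11 genes), 5 to 8 (11 genes) and 9 to 13 (16 genes) in each library. WT replicate 2 had 40.7 RPKM and 5C replicate 1 had 56.9 RPKM in groups 9 to 13, and the other 4 libraries had 71.0 to 73.1 RPKM.

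Markers of body regions were set beside this pattern, and their part in it was not tested. Of 8 caudal end genes, *T*, the gene of the notochord and tail bud, had 112, 20 and 41 counts in WT (5.88, 1.72 and 6.54 CPM) and was at 2.06 to 6.62 CPM in 5C, with 2.06 CPM in 5C replicate 1. It was lowest in the same 2 libraries. *Tbx6*, of the presomitic mesoderm, was at 1.10, 0.429 and 2.23 in WT against 0.909, 0.512 and 1.64 CPM in 5C. Not all genes of the list followed *T*. *Wnt3a* was at 4.04, 5.84 and 4.31 in WT against 5.33, 4.10 and 4.77 CPM in 5C, highest in WT replicate 2. *Fgf8* was at 5.56, 5.41 and 4.15 in WT against 6.91, 5.55 and 5.48 CPM in 5C, highest in 5C replicate 1. The summed list was flat, at 50.9, 47.5 and 49.9 in WT against 49.7, 46.3 and 49.8 CPM in 5C, since *Cyp26a1* and *Dll3* made up most of it. *Msgn1* and *Hes7* did not pass the filter. *Msgn1* had 5, 0 and 3 counts in WT and 1, 3 and 5 counts in 5C. *Hes7* had 8, 1 and 5 counts in WT and 3, 4 and 11 counts in 5C. In CPM both were lowest in the same 2 libraries as *T*, at few counts. The summed level of 7 forebrain and eye field genes was 77.7, 82.3 and 76.3 in WT against 95.9, 86.2 and 82.9 CPM in 5C, highest in WT replicate 2 among WT and in 5C replicate 1 among 5C. Of the 13 genes of these lists that were tested 0 were called, and 1, *Lhx2*, reached an unadjusted p under 0.05 (0.0262 in edgeR, higher in 5C). That was 14.3% of the 7 forebrain and eye field genes tested and 0% of the 6 caudal end genes tested. Over all genes 2.55% were higher in 5C at that level. The forelimb gene *Tbx5* was at 8.92, 5.67 and 9.25 in WT against 7.82, 7.68 and 7.05 CPM in 5C, lowest in WT replicate 2.

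Partners and regulators of *Hox* genes were read from the same fit. TALE homeodomain proteins (Pbx, Meis and Pknox) bind DNA together with Hox proteins. Of the 8 of these genes described here, all were tested and 0 were called or reached an unadjusted p under 0.05. The smallest p was that of *Pknox2*, at 42.1, 37.0 and 38.3 in WT against 38.8, 36.7 and 36.1 CPM in 5C (log2 fold change -0.07, SE 0.08, adjusted p = 0.859 in edgeR), and its genotypes overlapped. The summed level of the 8 genes was 855.4, 855.1 and 902.0 in WT against 862.1, 879.6 and 866.0 CPM in 5C. WT replicates 1 and 2 were nearly level, and the genotypes overlapped.

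Of 13 genes that set axial *Hox* expression, such as the *Cdx* genes, *Gdf11* and the retinoic acid enzymes and receptors, 10 were tested and 0 were called or reached an unadjusted p under 0.05. *Cdx1*, *Cdx4* and *Egr2* did not pass the filter. *Cdx4* had 14, 0 and 3 counts in WT and 1, 7 and 12 counts in 5C. In CPM it was lowest in WT replicate 2 and next lowest in 5C replicate 1, whereas *Cdx1* and *Egr2* were not lowest in WT replicate 2. *Cdx2*, which activates trunk *Hox* genes in the tail bud, was at 2.26, 0.944 and 1.12 in WT against 0.545, 0.598 and 1.57 CPM in 5C (log2 fold change -0.78, SE 0.48, adjusted p = 0.781 in edgeR). *Gdf11*, the signal for the switch from trunk to tail, was at 77.9 to 83.8 CPM in WT and between 76.5 and 82.2 CPM in 5C, with 82.9 CPM in WT replicate 2. *Cyp26a1*, which degrades retinoic acid in the tail bud, was at 11.33, 14.4 and 12.4 in WT against 11.27, 11.2 and 10.9 CPM in 5C (log2 fold change -0.19, SE 0.13, adjusted p = 0.781 in edgeR). It was highest in WT replicate 2, and its genotypes did not overlap, though WT replicate 1 and 5C replicate 1 were nearly level. Of the 10 genes tested, 1 lay lower in 5C without overlap and 0 lay higher. Over all genes 5.10% lay lower in this way and 6.26% higher.

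Polycomb and trithorax proteins hold *Hox* genes off or on through histone marks. All 23 of their genes listed were tested, 0 were called, and 4 were lower in 5C at an unadjusted p under 0.05, or 17.4%, against the 3.47% of all genes given above. *Kdm6b*, which removes the Polycomb mark, was at 28.8, 22.5 and 36.9 in WT against 20.1, 18.9 and 20.1 CPM in 5C (log2 fold change -0.56, SE 0.16, unadjusted p = 0.00561, adjusted p = 0.781 in edgeR). *Kmt2b* and *Kat6a*, which place activating marks, and *Pcgf2*, a Polycomb subunit, had log2 fold changes of -0.31, -0.19 and -0.36. In all 4 of these genes the 5C libraries lay under the WT libraries, as in 5.10% of all genes, and none passed the adjustment over all genes. In 2 of the 23, *Suz12* and *Bmi1*, the 5C libraries lay above the WT libraries, or 8.70% against 6.26% of all genes. The core Polycomb subunits *Suz12*, *Bmi1* and *Rnf2* were at log2 fold changes of 0.16, 0.16 and 0.17, with unadjusted p of 0.0525, 0.0553 and 0.0769 in edgeR. The core subunits *Ezh2*, *Eed* and *Ring1* were at -0.01, 0.03 and -0.03.

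Non-coding genes inside the clusters were mostly at low counts: 11 of 38 were tested, and 0 were called or reached an unadjusted p under 0.05. *Hoxaas2*, antisense to *Hoxa3*, was at 17.1, 21.5 and 17.9 in WT against 18.8, 16.99 and 16.3 CPM in 5C. *Hoxb3os* was at 13.01, 15.5 and 15.5 in WT against 14.8, 13.5 and 17.2 CPM in 5C. WT replicate 2 was thus not low in *Hoxaas2* and *Hoxb3os*. It was the lowest library for *Hoxaas3*, antisense to *Hoxa3* and *Hoxa7*, at 3.95 CPM against 5.09 and 4.95 CPM in the other WT libraries. It was also the lowest for *Hoxd3os1*, antisense to *Hoxd3* and *Hoxd4*, at 1.72 CPM against 1.84 and 2.23 CPM. *Hoxa11os* was at 6.66, 3.95 and 6.70 in WT against 4.67, 5.72 and 7.33 CPM in 5C. *Gm53* was at 8.81, 4.81 and 9.41 in WT against 6.18, 7.34 and 10.6 CPM in 5C. Both were lowest in WT replicate 2 and next lowest in 5C replicate 1. *Gm14424* was also lowest in WT replicate 2, whereas *Hoxb5os*, *Haglr*, *Gm15050* and *Gm29430* were not. Of 24 coding neighbours outside the clusters, 21 were tested, 0 were called and 3 were higher in 5C at an unadjusted p under 0.05, or 14.3%, against the 2.55% of all genes given above: *Cbx3*, *Snx10* and *Lnpk*, at log2 fold changes of 0.20, 0.21 and 0.18. *Lnpk*, which lies beside cluster D, was at 85.3, 86.2 and 93.5 in WT against 92.8, 105.9 and 101.1 CPM in 5C, with an adjusted p of 0.781 in edgeR.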

How the data were processed

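The authors prepared stranded poly(A) libraries from whole E10.5 embryos, aligned the reads with STAR to GRCm38 and deposited raw gene counts for each library, without normalization; which strand column was taken is not given in the sources used here. Symbols, exon lengths, positions and 3′ UTRs (longest coding transcript) came from GENCODE M21. Counts were compared with edgeR 4.0.16 in R 4.3.3 (filterByExpr on genotype, TMM, legacy quasi-likelihood F-test, two-sided, Benjamini-Hochberg over all 16784 genes tested, without covariates). Calls needed an adjusted p under 0.05 together with a fold change over 1.5. The method was tested on simulated counts. RPKM is TMM-scaled CPM per kilobase of exon.

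Of the 39 genes found by the rule, 1 is not reported here, and all sums cover the other 38; a gene of another list is left out in the same way. Members and lists were chosen with earlier results of these data known. Full statistics went to the 8 members with the smallest p, the most abundant member of each cluster and members whose genotypes did not overlap; *Hoxb5*, *Hoxa13* and other members were named after their values were seen. From each list at most 4 genes with the smallest p were to be named, and those named beyond that were chosen after their values were seen. Lists also held 4 erythroid genes, which summed to 8138 to 15899 CPM, with 0 called. Every pair of libraries differed by more than sampling noise. Floors of 3 counts cover counting error only. Alternatives were other scalings, filters and tests (DESeq2 1.42.0, limma-voom 3.58.1), offsets fitted on GC content, the replicate number as a block and leaving out each library.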

Additional observations from a re-analysis of the deposited data

How the results depend on the processing

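The number of *Hox* genes called was 0 under every alternative run, with TMM replaced by relative log expression or library size, other count filters, DESeq2, limma-voom, GC offsets, the replicate block or any library left out, and 0 genes of the TALE, regulator, Polycomb and trithorax, non-coding, neighbour, caudal, forebrain, yolk sac and decidua lists were called with DESeq2, the replicate block or any library left out. *Hox* genes at an unadjusted p under 0.05 numbered 1 in the reported fit, 3 without a count filter, 0 with DESeq2, 2 with GC offsets and replicate block together, and 0 to 4 with a library left out. In the first 4 of these settings that was 2.86%, 7.89%, 0% and 5.71% of the *Hox* genes tested. Over all genes the shares were 6.02%, 6.55%, 4.28% and 3.04%. The members were *Hoxa4*, *Hoxa5*, *Hoxa7* and *Hoxb9* without WT replicate 1 (4), *Hoxc12* and *Hoxd3* without WT replicate 2 (2), and *Hoxb2* and *Hoxd8* without WT replicate 3 (2), and there were 0 without 5C replicate 2. *Hoxb2* was thus at a p over 0.05 without WT replicate 1, WT replicate 2 or 5C replicate 2 (0.0509, 0.0597 and 0.0990). Without WT replicates 1, 2 and 3 in turn, 11.4%, 5.41% and 5.56% of *Hox* genes tested were at an unadjusted p under 0.05. Over all genes this held for 4.63%, 10.4% and 5.11%, and for 2.62% without 5C replicate 2. *Hox* genes with a negative log2 fold change numbered 9, against 5 with GC offsets, 3 with GC offsets and replicate block, and 3 (without WT replicate 1) to 25 (without WT replicate 2) with a library left out. Over all genes 0 were called as reported, 319 of 33139 without a count filter, 11 with DESeq2 and 0 or 1 with a library left out. The median log2 fold change of the *Hox* genes was 0.12 and ranged from -0.06 to 0.21 with a library left out.

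With a library left out, *Hoxc5* ranged from -0.075 to 0.25 and *Hoxd4* from -0.055 to 0.076. *Hoxd4* was at -0.055 without WT replicate 2, -0.029 without 5C replicate 2 and -0.018 without 5C replicate 3, and *Hoxc5* was at -0.075 without WT replicate 2. Deviations of same-numbered libraries correlated at -0.17, 0.20 and -0.17, and those of other pairs of a WT and a 5C library at -0.20 to 0.31. Deviations were taken from the mean of only 3 libraries per genotype. They cannot decide whether the replicate numbers pair the libraries. With the replicate block 1 *Hox* gene was at an unadjusted p under 0.05, or 2.86% against 4.66% of all genes, and 10 had a negative log2 fold change.

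Shares moved with the length used. Over exon bases of their own, groups 9 to 13 took 30.4% in 5C, cluster A took 27.8% in WT and 28.4% in 5C, cluster B took 32.2% and 31.8%, and cluster D took 25.8% and 26.0%. Without division by length cluster A took 28.7% in WT. The order of levels correlated with the reported order at a Spearman rho of 0.958 over own bases and 0.927 without division by length. Across 16770 genes log2 fold change fell with GC content (Spearman rho -0.31). Depth limits *Hoxb13*, *Hoxc12* and *Hoxc13*, at 0 to 25 counts.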
